A study of Ovis aries with 49 samples.

Results

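The PGC-1 coactivators and the oestrogen-related receptors were followed here as 4 genes, PPARGC1A, PPARGC1B, ESRRA and ESRRG, in 5 adipose depots of lambs at 28 and 7 days of age. They were taken by gene symbol alone, and each is read by 1 probe set, so they make up 4 of the 10273 probe sets of the table. All 4 were measured on all 49 arrays, and the main fits used no filter on low values. Only probe sets of the deposited table could be read.

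PGC-1α, the product of PPARGC1A, and PGC-1β, the product of PPARGC1B, do not bind DNA themselves. They dock on nuclear receptors and other transcription factors, the oestrogen-related receptors ERRα (ESRRA) and ERRγ (ESRRG) among them, and raise transcription of genes for the respiratory chain, the citric acid cycle and fatty acid oxidation. In rodents, cold and β-adrenergic signals induce PGC-1α in brown fat, where it coactivates the gene for uncoupling protein 1 (UCP1), the inner membrane protein that lets mitochondria release heat, and ERRγ is abundant in the heart and in oxidative muscle.

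RNA of whole tissue pieces from offspring of Bluefaced Leicester cross Swaledale ewes was hybridised to a human array, with 25 arrays at 28 days and 24 at 7 days, in groups of 5 except subcutaneous fat at 7 days (n = 4). The groups are perirenal, epicardial, sternal, omental and subcutaneous fat at 28 days and the same depots at 7 days. No genotype or treatment is given in the labels, and the diet of the mothers is not stated there: every title holds a letter C without explanation. Replicates are written here as letters, H to O at 28 days and A to G at 7 days. The study took several depots from each lamb and 1 twin of a pair at each age, but the labels define neither animal nor litter, and no number occurs at both ages. The arrays were therefore fitted as independent samples, and p-values cover no more than the spread among them. The ages are those of the age field and the titles, from which a shared description differs. By the methods of the paper, more tissue was taken for RNA at 28 days than at 7 days. Age and amount of tissue therefore cannot be told apart in a difference between the ages.

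Values are on the log2 scale. They are signals of human probes with sheep RNA, so a level is compared between arrays for 1 gene and never between genes. Of the deposited values 82.7% lay below 4, and the lowest was 2.49. Each of the 4 probe sets also has a low value that recurs from array to array within 0.02: 3.01 for PPARGC1A (7 of 49 arrays), 4.72 for PPARGC1B (9), 4.41 for ESRRA (18) and 3.29 for ESRRG (10). Around and below it no order between arrays was read. A difference against a group lying there may understate the change, or overstate it where arrays lie far below the value. Of 14 adipocyte markers 10 were measured, with array means between 3.79 and 4.52. DGAT2 (group means of 8.86 to 10.6) and CD36 (8.61 to 9.97) carried most of this signal. No other adipocyte marker had a group mean above 3.83 (PNPLA2), so the narrow range says little about adipocyte content. Sternal arrays at 28 days were lower as a whole, with a mean over all probe sets of 3.25 to 3.30, against 3.38 to 3.44 in the other depots at that age. At 7 days omental (3.28 to 3.31), subcutaneous (3.30 to 3.32) and sternal arrays (3.27 to 3.30) were also low, against 3.36 to 3.37 in perirenal fat. Omental and subcutaneous arrays ran higher as a whole at 28 days (3.405 to 3.432 and 3.38 to 3.42). A fall of a gene with age may thus be understated in these 2 depots. Heart muscle genes, some of which skeletal muscle also uses, ran high in epicardial fat, and CKM, the creatine kinase of heart and skeletal muscle, was above 4 on 9 sternal and subcutaneous arrays. In whole tissue, fewer cells of a type and less RNA per cell cannot be told apart.

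PPARGC1A stood high in epicardial, perirenal and sternal fat at 7 days, and at 28 days only epicardial fat stayed far above the rest. In epicardial fat it was 4.31, 6.34, 5.60, 4.65 and 6.51 at 28 days (replicates I, J, L, N and O), against 6.35, 6.51, 6.59, 6.76 and 7.44 at 7 days (A, C, D, E and G). In perirenal fat it was 4.17, 4.94, 3.83, 3.85 and 3.63 at 28 days (I, J, K, M and N), against 6.85, 6.75, 6.73, 6.17 and 6.16 at 7 days (A, B, C, D and G). In sternal fat it was 3.03, 3.38, 3.09, 3.03 and 3.63 at 28 days (I, J, M, N and O), against 6.95, 6.80, 6.35, 6.29 and 5.08 at 7 days (B, D, E, F and G). Every perirenal and every sternal array at 28 days lay below every 7-day array of the same depot, as held for 2.54% and 2.2% of all probe sets, while epicardial replicate O at 28 days reached into the 7-day range. Omental fat ran from 2.64 to 3.39 at 28 days and from 2.59 to 3.90 at 7 days. Subcutaneous fat ran from 2.51 to 3.82 at 28 days and from 3.03 to 4.09 at 7 days. Both of these depots stayed around the recurring low value at both ages.

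**Figure D1:**
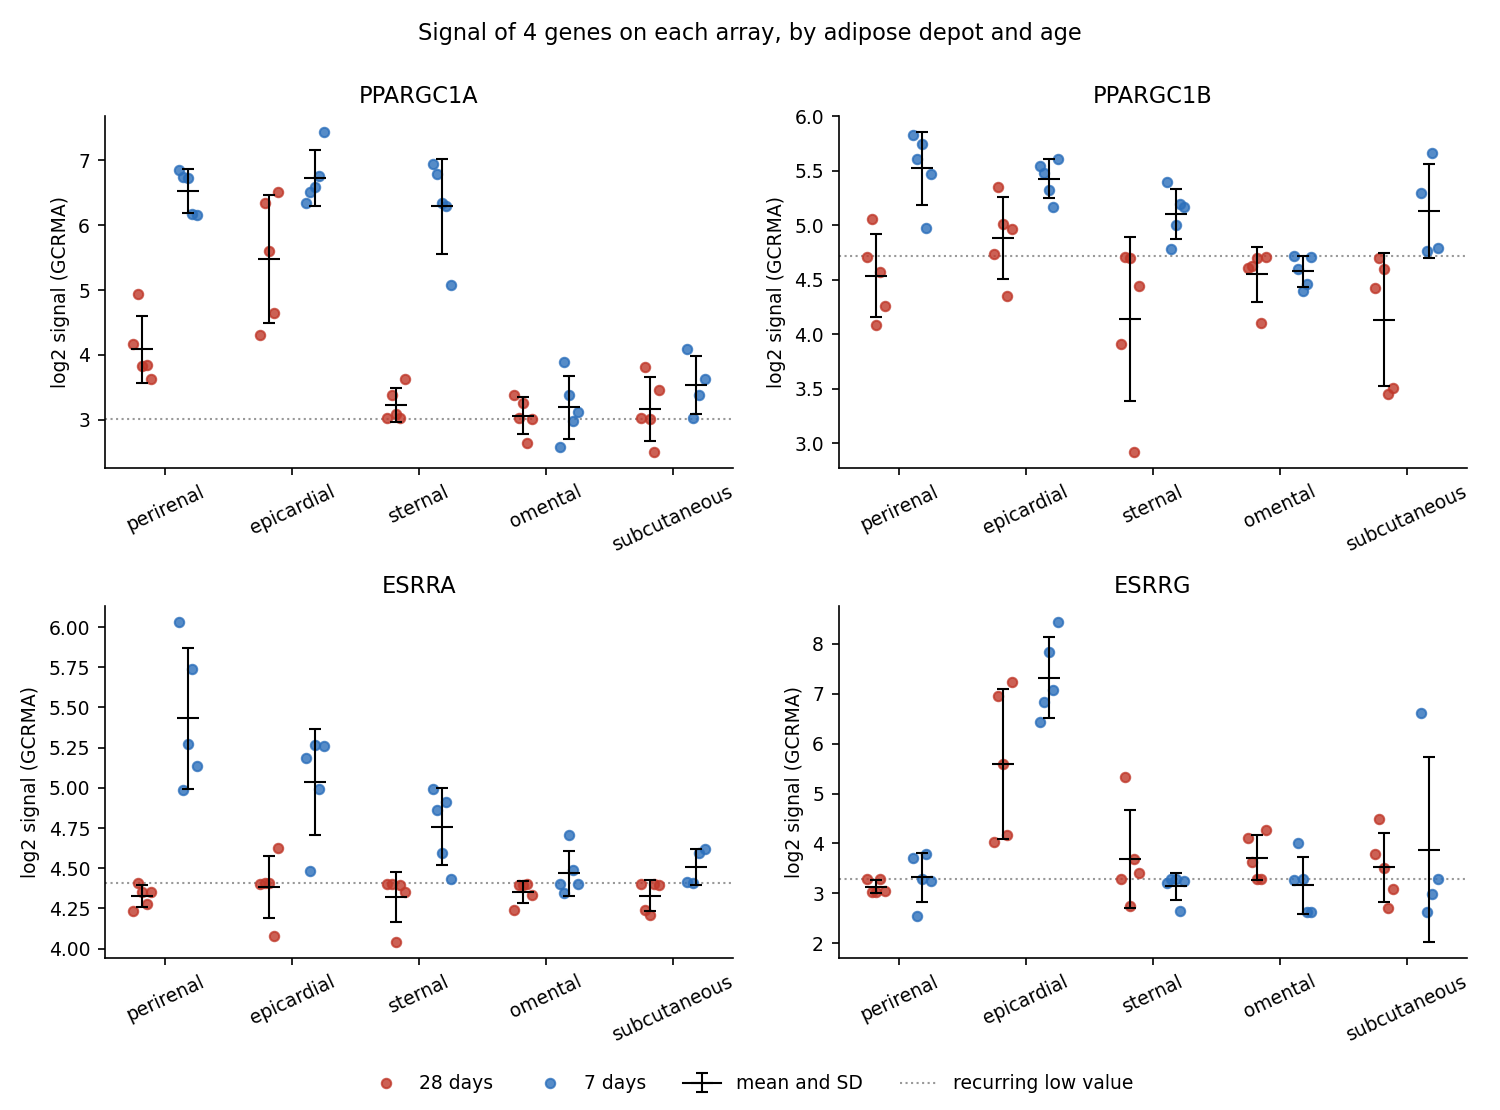
Log2 signal (y axis) of PPARGC1A, PPARGC1B, ESRRA and ESRRG on each of 49 arrays, by depot (x axis), at 28 days (red, left) and 7 days (blue, right), with the mean and SD of each group in black and the recurring low value of the probe set as a dotted line. PPARGC1A of perirenal and sternal fat does not overlap between the ages, ESRRA lies at or under the dotted line on 24 of 25 arrays at 28 days, and ESRRG is high in epicardial fat with single high arrays in sternal fat at 28 days (5.33) and subcutaneous fat at 7 days (6.62).

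With age PPARGC1A fell by 3.06 on the log2 scale in sternal fat, 8.36-fold (SE 0.33, adjusted p = 1.29e-08). It fell by 2.44 in perirenal fat, 5.44-fold (SE 0.33, adjusted p = 1.24e-06), and by 1.25 in epicardial fat, 2.38-fold (SE 0.33, adjusted p = 0.0154). After quantile normalization, which gives all arrays 1 distribution, the sternal difference was -3.07. Omental fat (-0.13 ± 0.33, SE, adjusted p = 0.899) and subcutaneous fat (-0.36 ± 0.35, SE, adjusted p = 0.633) did not pass the test. Across the 4 genes and 5 depots, 10 of 20 combinations passed and all 10 were lower at 28 days, beside 9.07% of all probe sets and depots that passed in either direction and 2.24% that were lower. Most values of the table lie below 4, where a fall has little room to show, so such shares are no like comparison for genes of higher signal. By depot, 3 of the 4 genes were lower in perirenal fat (3.09% of all probe sets were), 3 in epicardial fat (1.63%), 3 in sternal fat (3.89%), 1 in subcutaneous fat (1.57%) and 0 in omental fat (1.03%). In omental fat none of the 4 passed in an exact two-sided permutation test either (p = 0.0873 to 0.841, where 0.00794 is the smallest p that 5 against 5 allows). Epicardial fat rested on few arrays: without replicate I at 28 days the difference was -0.96 (adjusted p = 0.0919), without N it was -1.04 (0.0753), and without replicate G at 7 days it was -1.07 (0.0640).

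UCP1 passed the test in perirenal and sternal fat, where it fell. In perirenal fat it averaged 2.91 ± 0.05 at 28 days and 6.29 ± 1.12 at 7 days (SD, n = 5 each), with a range of 5.52 to 8.22 at 7 days, and the difference was -3.37 ± 0.36 (SE, adjusted p = 1.14e-08). In sternal fat it ran from 2.88 to 2.91 at 28 days and from 3.52 to 5.51 at 7 days (-1.56 ± 0.36, SE, adjusted p = 0.00376). UCP1 did not pass the test in epicardial fat (-1.14 ± 0.36, adjusted p = 0.0538), in omental fat (-0.74 ± 0.36, adjusted p = 0.184) or in subcutaneous fat (0.19 ± 0.39, adjusted p = 0.886). In epicardial fat all arrays at 28 days (2.88 to 2.94) nonetheless lay below all at 7 days (3.34 to 5.32), as held for 0.73% of all probe sets.

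Muscle transcripts also differed between sternal arrays. CKM was above 4 on 3 of 5 sternal arrays at 28 days, J (12.7), N (4.51) and O (11.3), and on 1 of 5 at 7 days, D (8.29). PPARGC1A on these arrays was 3.38, 3.03 and 3.63 at 28 days and 6.80 at 7 days. With all 9 arrays of high CKM left out, which leaves 2 sternal arrays at 28 days (I and M), the sternal difference was -3.11 (adjusted p = 6.21e-05).

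The change of PPARGC1A with age differed between depots, as tested by the difference of the differences. The change in sternal fat minus that in omental fat was -2.94 ± 0.47 (SE, adjusted p = 4.82e-05) and minus that in subcutaneous fat -2.70 ± 0.48 (adjusted p = 0.000470). The change in perirenal fat minus that in omental fat was -2.32 ± 0.47 (adjusted p = 0.00221) and minus that in subcutaneous fat -2.08 ± 0.48 (adjusted p = 0.0136). Sternal fat also fell more than epicardial fat, with a change in epicardial minus sternal fat of 1.82 ± 0.47 (adjusted p = 0.0349). Perirenal fat was not separated from epicardial fat (-1.20 ± 0.47, adjusted p = 0.415) or from sternal fat (0.62 ± 0.47, adjusted p = 0.641). Over the 4 genes 7 of 40 such differences passed, 5 for PPARGC1A and 2 for ESRRA, beside 2.39% over all probe sets. The comparison of epicardial with sternal fat was lost when any of 9 single arrays was left out, epicardial J, L and O at 28 days, epicardial A and D at 7 days, sternal I and N at 28 days and sternal B and D at 7 days (1.60, 1.79, 1.56, 1.72, 1.78, 1.76, 1.76, 1.65 and 1.69, adjusted p = 0.0557 to 0.0796). Without the 9 arrays with CKM above 4, leaving 1 subcutaneous array at 7 days, it stood at 1.86 (adjusted p = 0.114) and that of perirenal with subcutaneous fat at -2.50 (adjusted p = 0.0590).

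**Figure D2:**
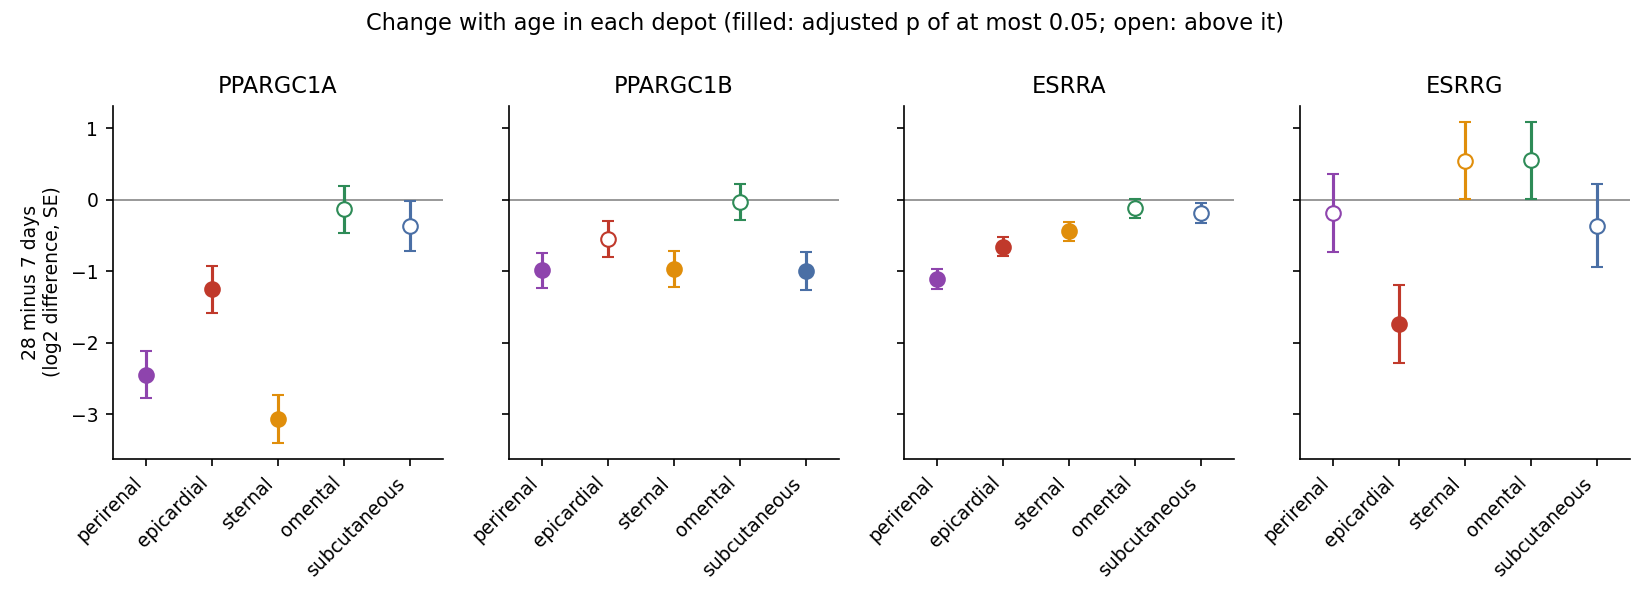
Difference between 28 and 7 days on the log2 scale (y axis, 28 minus 7 days, with its SE from the linear model) for the 4 genes in each depot (x axis), where filled points have an adjusted p of at most 0.05. The largest falls are those of PPARGC1A in sternal (-3.06) and perirenal fat (-2.44), and in omental fat no point is filled.

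Depots were then compared within an age. At 28 days 2 of the 4 genes passed an F test over all depots, PPARGC1A (F = 17.7, adjusted p = 8.21e-05) and ESRRG (F = 6.48, adjusted p = 0.0112), beside 20% of all probe sets. At 7 days 4 of 4 passed, beside 8.16%. PPARGC1A had the highest F at that age (F = 61.4, adjusted p = 6.84e-08). Against the mean of the other 4 depots, 3 of 20 combinations passed at 28 days (6.96% over all probe sets) and 9 of 20 at 7 days (2.69%). Between pairs of depots, 7 of 40 passed at 28 days (6.86%) and 15 of 40 at 7 days (2.6%). Without epicardial replicate J or O at 28 days, the F test called 1 gene and 4 pairs passed.

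At 28 days epicardial fat alone stood out for PPARGC1A. It averaged 5.48 ± 0.98 (SD, n = 5) there, 2.09 above the mean of the other depots (SE 0.27, adjusted p = 3.90e-05). It lay above omental fat (3.07 ± 0.29) by 2.42, above sternal fat (3.23 ± 0.27) by 2.25 and above subcutaneous fat (3.17 ± 0.50) by 2.32, with adjusted p between 0.000130 and 0.000306. Perirenal fat came second (4.09 ± 0.52), and its difference from epicardial fat, -1.40 ± 0.34, passed the test (adjusted p = 0.0301). That call was lost without any of epicardial J, L or O or perirenal I, K, M or N (-1.18, -1.37, -1.14, -1.42, -1.33, -1.34 and -1.28, adjusted p = 0.0566 to 0.102). All perirenal arrays exceeded all omental and all sternal arrays, as for 1.0% of all probe sets, but perirenal minus omental fat (1.02 ± 0.34, adjusted p = 0.140) and perirenal minus sternal fat (0.85 ± 0.34, adjusted p = 0.105) did not pass. Sternal, subcutaneous and omental fat did not differ from each other beyond their spread (adjusted p of at least 0.802). Omental fat lay below the mean of the other depots by 0.93 (SE 0.27, adjusted p = 0.0490), a call lost without any of 21 of the 25 arrays at that age (-1.01 to -0.82, adjusted p up to 0.162).

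At 7 days PPARGC1A split the depots into a high and a low group. Epicardial (6.73 ± 0.43), perirenal (6.53 ± 0.34) and sternal fat (6.29 ± 0.74) did not differ from each other beyond their spread (adjusted p = 0.566 to 0.925). Subcutaneous (3.53 ± 0.45, n = 4) and omental fat (3.19 ± 0.49) did not either (adjusted p = 0.875). Each of the 6 differences across the split passed, from 2.76 for sternal minus subcutaneous fat (SE 0.32, adjusted p = 8.97e-05) to 3.54 for epicardial minus omental fat (SE 0.31, adjusted p = 2.39e-07), and no arrays overlapped across it, as held for 0.0973% of all probe sets. At 28 days the same sternal minus subcutaneous difference was 0.06 ± 0.34 (adjusted p = 0.946).

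PPARGC1B, the second coactivator, fell in perirenal, sternal and subcutaneous fat. In perirenal fat it was 4.71, 5.05, 4.09, 4.57 and 4.26 at 28 days (I, J, K, M and N), against 5.82, 5.60, 5.74, 4.97 and 5.47 at 7 days (A, B, C, D and G). In sternal fat it was 3.91, 4.71, 4.70, 2.92 and 4.44 at 28 days (I, J, M, N and O), against 5.39, 4.78, 5.00, 5.19 and 5.16 at 7 days (B, D, E, F and G). In subcutaneous fat it was 4.42, 4.70, 4.60, 3.45 and 3.50 at 28 days (H, I, J, M and N), against 5.30, 4.76, 5.66 and 4.79 at 7 days (A, E, F and G). The ages did not overlap in sternal and subcutaneous fat, as for 2.2% and 1.03% of all probe sets, and in perirenal fat only replicate J at 28 days reached above the lowest 7-day array. The fitted falls were 0.99 in perirenal fat (SE 0.25, adjusted p = 0.00685), 0.97 in sternal fat (SE 0.25, adjusted p = 0.0109) and 0.99 in subcutaneous fat (SE 0.27, adjusted p = 0.0122). All sternal and subcutaneous arrays at 28 days lay at or below the recurring value, and all at 7 days above it. As no order was read below it, values such as 2.92 and 3.45 may overstate these sizes, and their likeness was not read. At 28 days 21 of 25 arrays lay at or below the recurring low value, against 5 of 24 at 7 days.

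Single arrays weighed on these falls. Without sternal replicate N, the lowest of all 49 arrays, the sternal difference was -0.66 (adjusted p = 0.0880). Without subcutaneous replicate M at 28 days or F at 7 days the subcutaneous difference was -0.82 in both cases (adjusted p = 0.0504 and 0.0713). Without the arrays with CKM above 4 the sternal difference was -0.88 (adjusted p = 0.0564), with 2 sternal arrays left at 28 days, and the subcutaneous one -1.45 (adjusted p = 0.0153), with 1 array left at 7 days. Epicardial fat (4.88 ± 0.37 at 28 days, 5.43 ± 0.18 at 7 days, SD, n = 5 each) did not pass the test across all probe sets (-0.54 ± 0.25, SE, adjusted p = 0.256), though its exact permutation p was 0.0238. In omental fat the difference was -0.03 ± 0.25 (adjusted p = 0.989). None of the 10 differences between depots in the change of PPARGC1B passed (adjusted p = 0.0949 to 0.997).

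Within an age the depots passed the test for PPARGC1B at 7 days, when omental fat was lowest. The 5 omental arrays, 4.72, 4.60, 4.39, 4.46 and 4.71 (A, C, D, E and G), all lay below the 19 other arrays of that age, which began at 4.76, as held for 0.0389% of all probe sets, though the highest of them lay at the recurring value of 4.72. Omental fat was 0.72 below the mean of the other depots (SE 0.13, adjusted p = 0.00549), 0.95 below perirenal fat (adjusted p = 0.00159) and 0.85 below epicardial fat (adjusted p = 0.00360). It did not pass against sternal fat (sternal minus omental 0.53 ± 0.17, SE, adjusted p = 0.201) or subcutaneous fat (omental minus subcutaneous -0.55 ± 0.18, adjusted p = 0.275). Perirenal fat lay 0.46 above the mean of the others (SE 0.13, adjusted p = 0.0451), which was lost without any of 18 of the 24 arrays (0.39 to 0.48, adjusted p up to 0.161). At 28 days no depot passed (F = 2.16, adjusted p = 0.264), and the means ran from 4.13 in subcutaneous fat to 4.88 in epicardial fat.

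ESRRA, the receptor ERRα through which both coactivators act on mitochondrial genes, was measurable above its recurring value mainly at 7 days. In perirenal fat it was 4.23, 4.41, 4.35, 4.28 and 4.35 at 28 days (I, J, K, M and N), against 6.03, 4.99, 5.27, 5.74 and 5.13 at 7 days (A, B, C, D and G). In epicardial fat it was 4.40, 4.41, 4.41, 4.08 and 4.63 at 28 days (I, J, L, N and O), against 5.19, 4.48, 5.26, 4.99 and 5.26 at 7 days (A, C, D, E and G). In sternal fat it was 4.40, 4.40, 4.04, 4.39 and 4.35 at 28 days (I, J, M, N and O), against 4.99, 4.86, 4.59, 4.91 and 4.43 at 7 days (B, D, E, F and G). At 28 days 24 of 25 arrays lay at or below the recurring value, epicardial O being the exception, against 6 of 24 at 7 days. The ages did not overlap in perirenal fat, and in epicardial fat they overlapped only through O at 28 days and C at 7 days. In sternal fat the highest array at 28 days (4.40) and the lowest at 7 days (4.43) both lay at the recurring value, so no order was read between them.

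ESRRA fell by 1.11 in perirenal fat (2.15-fold, SE 0.14, adjusted p = 1.68e-07), by 0.65 in epicardial fat (SE 0.14, adjusted p = 0.00146) and by 0.44 in sternal fat (SE 0.14, adjusted p = 0.0393). The 28-day arrays other than epicardial O lie at or below the recurring value, in perirenal fat 1 at it and 4 below it. These sizes may therefore be too small, or too large where arrays lie far below it. The perirenal and epicardial falls kept their call with any single array left out (adjusted p up to 0.00997 in epicardial fat). The sternal one was lost without M, N or O at 28 days (-0.37, -0.46 and -0.45) or B, D or F at 7 days (-0.38, -0.41 and -0.40), with adjusted p from 0.0538 to 0.129, without the arrays with CKM above 4 (-0.51, adjusted p = 0.184, with 2 sternal arrays left at 28 days) and after quantile normalization (-0.36, adjusted p = 0.141). Omental fat (-0.12 ± 0.14, adjusted p = 0.677) and subcutaneous fat (-0.18 ± 0.14, adjusted p = 0.525) did not pass, though after quantile normalization omental fat did (-0.51, adjusted p = 0.0217). The subcutaneous ages nonetheless did not overlap, with a highest value of 4.40 at 28 days and a lowest of 4.41 at 7 days, a gap within the tolerance of the recurring value.

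The change of ESRRA in perirenal fat minus that in omental fat was -0.99 ± 0.19 (SE, adjusted p = 0.00159) and minus that in subcutaneous fat -0.93 ± 0.20 (adjusted p = 0.00604). After quantile normalization the first was -0.72 (adjusted p = 0.0571), and without the arrays with CKM above 4 the second was -0.86 (adjusted p = 0.203). Set against sternal (-0.67 ± 0.19, adjusted p = 0.0673) and epicardial fat (-0.45 ± 0.19, adjusted p = 0.480) it did not pass. At 7 days perirenal fat averaged 5.43 ± 0.44 and lay 0.74 above the mean of the other depots (SE 0.14, adjusted p = 0.00265), 0.96 above omental fat (4.47 ± 0.14, adjusted p = 0.00186), 0.92 above subcutaneous fat (4.51 ± 0.11, n = 4, adjusted p = 0.00503) and 0.67 above sternal fat (4.76 ± 0.24, adjusted p = 0.0470). The last of these was lost without any of 19 of the 24 arrays (0.52 to 0.71, adjusted p up to 0.131). Perirenal and epicardial fat (5.04 ± 0.33) did not differ beyond their spread (0.39 ± 0.17, adjusted p = 0.327). At 28 days the 5 means lay between 4.32 and 4.38 (F = 0.23, adjusted p = 0.938).

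ESRRG, the receptor ERRγ, was on average high in epicardial fat at both ages and lower elsewhere. In epicardial fat it was 4.03, 6.96, 5.59, 4.16 and 7.24 at 28 days (I, J, L, N and O), against 6.44, 6.84, 7.83, 7.07 and 8.44 at 7 days (A, C, D, E and G). At 28 days the arrays spread over more than 3 log2 units, with I and N low and J and O within the 7-day range. Replicates I and N lay within the range of the other 4 depots at that age, 2.70 to 5.33. Epicardial fat lay above the mean of the other depots by 2.08 at 28 days (4.23-fold, SE 0.42, adjusted p = 0.00606) and by 3.95 at 7 days (15.4-fold, SE 0.43, adjusted p = 5.15e-06). At 7 days each of its 4 pairs passed, from 3.44 against subcutaneous fat (adjusted p = 0.00129) to 4.18 against sternal fat (adjusted p = 5.44e-05). At 28 days it passed against perirenal fat (perirenal minus epicardial -2.46, adjusted p = 0.0134), sternal fat (1.90, adjusted p = 0.0213) and subcutaneous fat (2.08, adjusted p = 0.0321), and not against omental fat (1.88 ± 0.53, adjusted p = 0.0560). None of the 6 pairs without epicardial fat passed at either age. With a block for the number in the title, none of these calls at 28 days was kept. Epicardial fat against the others gave 1.86 (adjusted p = 0.0584). Its pairs with perirenal, sternal and subcutaneous fat gave adjusted p = 0.139, 0.0636 and 0.180, and the F test over the depots gave 3.89 (adjusted p = 0.103).

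The differences at 28 days leaned on replicates J and O. Without J the F test gave 4.40 (adjusted p = 0.0508) and without O 4.44 (adjusted p = 0.0501). Epicardial minus sternal fat was lost without J (1.56, adjusted p = 0.0696), O (1.49, adjusted p = 0.0669) or sternal M (1.67, adjusted p = 0.0571). Epicardial minus subcutaneous fat was lost without epicardial J, L or O (1.74, 2.08 and 1.66) or subcutaneous J, M or N (2.08, 1.87 and 1.97), with adjusted p from 0.0597 to 0.103. The fall of ESRRG with age in epicardial fat, by 1.73 (3.31-fold, SE 0.54, adjusted p = 0.0485), was close to the threshold. It was lost without any of 36 of the 49 arrays, 6 of them epicardial, I, L and N at 28 days (-1.34, -1.73 and -1.37) and D, E and G at 7 days (-1.60, -1.79 and -1.45), with adjusted p up to 0.203. Its exact permutation p was 0.0714. In the other 4 depots the changes were -0.18 in perirenal, 0.55 in sternal, 0.55 in omental and -0.36 in subcutaneous fat, none passing (adjusted p = 0.593 to 0.986). No difference between depots in the change of ESRRG passed either (adjusted p of at least 0.130).

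ESRRG was above 5 only on arrays with high heart muscle genes, but did not follow them on every array. Of 17 heart muscle genes on the list 11 were measured, and 9 of them were higher in epicardial fat than in the mean of the other depots at each age. Over all probe sets 2.74% were at 28 days and 3.35% at 7 days. The mean of the 11 heart genes was 2.71, 7.79, 7.60, 6.40 and 8.56 in epicardial fat at 28 days (I, J, L, N and O), against 6.60, 7.50, 8.70, 8.28 and 8.83 at 7 days (A, C, D, E and G). Replicate I at 28 days held none of this signal: MYH6, the heart's α-myosin, was at 2.52 and TNNI3, cardiac troponin I, at 2.94, against 7.31 or more and 7.88 or more on the other 9 epicardial arrays. Replicates I and N, the lowest in heart genes at 28 days, were also the lowest in ESRRG. Yet N, with a heart gene mean of 6.40, had ESRRG of 4.16, close to I (4.03). Replicate A at 7 days, with a heart gene mean of 6.60, had 6.44. None of the 11 heart genes passed between the ages in epicardial fat (median difference -1.64), where 5.84% of all probe sets did.

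**Figure D3:**
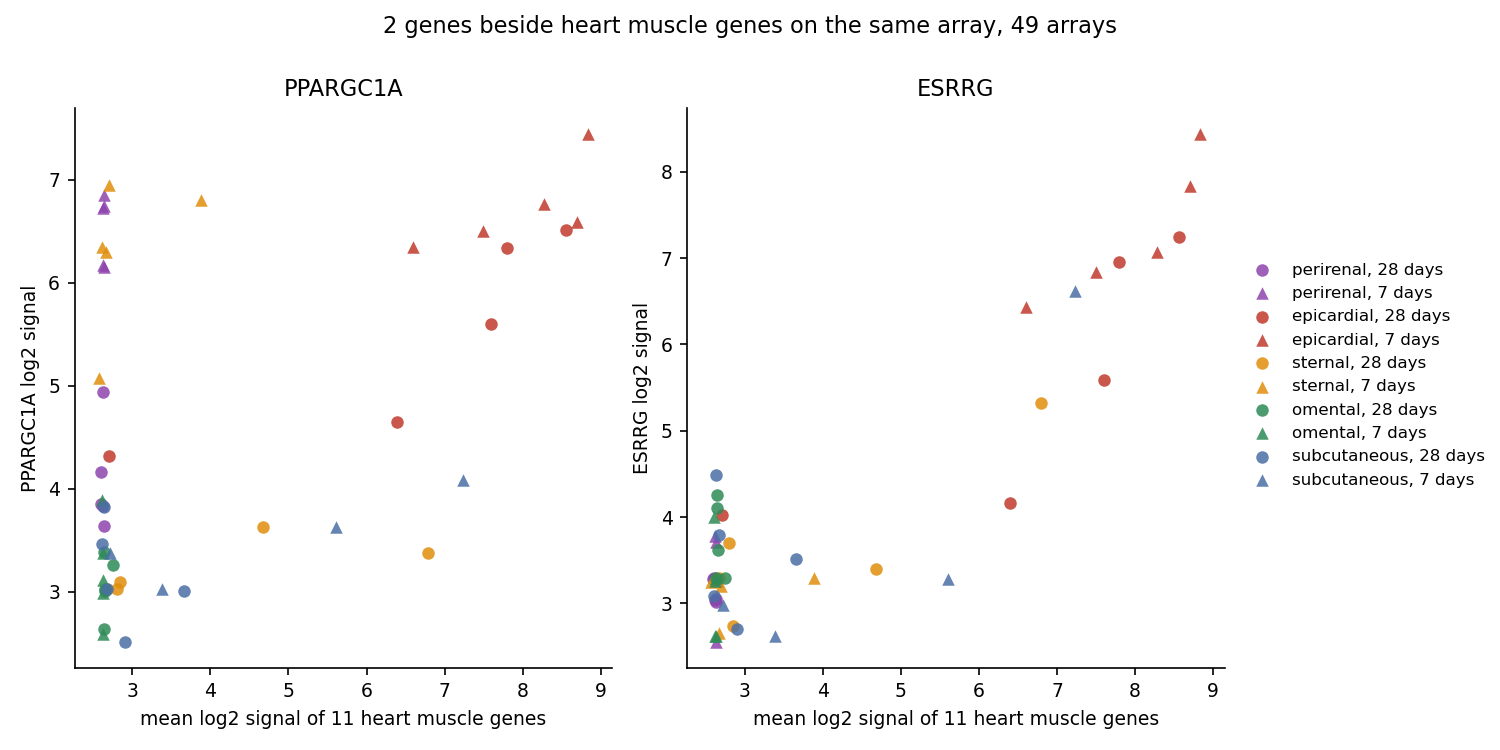
Log2 signal of PPARGC1A (left panel) and ESRRG (right panel) on the y axis against the mean log2 signal of 11 heart muscle genes on the same array on the x axis, for 49 arrays coloured by depot, with circles at 28 days and triangles at 7 days. ESRRG above 5 is seen only on arrays with heart gene means of 6.60 or more, while PPARGC1A is above 6 in perirenal fat at 7 days with heart gene means of at most 2.64.

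Outside epicardial fat ESRRG exceeded 5 on 2 arrays, subcutaneous A at 7 days (6.62) and sternal J at 28 days (5.33). These were the only 2 of 39 such arrays with MYH6 above 4 (6.52 and 4.72), and their CKM was 12.9 and 12.7. Cardiac TNNI3 on them was only 3.125 and 3.154. TNNC2, a troponin on the list of fast skeletal muscle, was 12.15 and 11.64. Among the other 37 arrays ESRRG ran from 2.55 to 4.49. The other 7 sternal and subcutaneous arrays with CKM above 4, among them subcutaneous G at 7 days (CKM 11.7) and sternal O at 28 days (CKM 11.3), had ESRRG of 2.62 to 3.70. Without subcutaneous A the change of ESRRG with age in subcutaneous fat was 0.55 (adjusted p = 0.661) in place of -0.36. The part of muscle RNA in the ESRRG differences was not tested.

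PPARGC1A in epicardial fat also had its lowest values on replicates I (4.31) and N (4.65). Replicate I, with heart genes at the level of the other depots, lay above all omental, sternal and subcutaneous arrays at 28 days (2.51 to 3.82) and above 4 of the 5 perirenal ones. In perirenal fat the heart gene mean was 2.60 to 2.64 at 28 days and 2.62 to 2.64 at 7 days, and PPARGC1A there fell by 2.44. The part of muscle RNA in the PPARGC1A values of epicardial fat was not tested.

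Over the 10 group means the 2 coactivators and ESRRA ran alike, and ESRRG did not. Pearson's r between the means was 0.825 for PPARGC1A and PPARGC1B, 0.800 for PPARGC1A and ESRRA and 0.844 for PPARGC1B and ESRRA. It was 0.478, 0.402 and 0.229 for ESRRG with PPARGC1A, PPARGC1B and ESRRA. These describe 10 groups of shared arrays and were not tested. The 2 closest relatives did not separate the depots: PPRC1, the third PGC-1 family member, ran from 2.82 to 4.29 (F test adjusted p = 0.0650 at 28 days and 0.589 at 7 days), and ESRRB, the third receptor, from 2.71 to 3.64 with 27 arrays at its own recurring value of 3.08 (adjusted p = 0.119 and 0.641). Between the ages PPRC1 rose in omental fat and ESRRB in subcutaneous fat.

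Among 646 probe sets whose highest group mean was at least 5 and whose group means spanned at least 1 log2 unit, those most like each gene over the 10 group means were picked by Pearson's r. For PPARGC1A they were WDR45 (r = 0.943), a protein of autophagy, ALKBH7 (0.916), NDUFA12 (0.901), a complex I subunit, COX5A (0.896), a subunit of cytochrome c oxidase, and PPTC7 (0.887), a mitochondrial phosphatase. For PPARGC1B they were IDH3B (0.971), of the citric acid cycle, the phosphate carrier SLC25A3 (0.964), UQCRC1 (0.962) of complex III, NDUFV1 (0.961) of complex I and COX5A (0.960). For ESRRA they were USP2 (0.967), NDUFV1 (0.947), the import motor protein PAM16 (0.946), the mitochondrial nuclease ENDOG (0.941) and HINT2 (0.933). For ESRRG they were PPM1E (0.988), MYH6 (0.981), GPR22 (0.977), cardiac actin ACTC1 (0.977) and TNNI3 (0.970). Genes were ranked, not tested, and the groups share arrays.

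The wider pathway was read from 7 lists, of whose 143 genes 100 were measured. Between 28 and 7 days 72 of 500 combinations of gene and depot were lower and 43 higher. The respiratory chain and its carriers held 41 of the lower calls, 39.0% of its combinations, and 0 higher. The citric acid cycle and fatty acid oxidation held 23 lower (28.7% of 80) and 1 higher. The other 5 lists, of regulators and other targets, held 8 lower and 42 higher calls. Over all probe sets 2.24% were lower and 6.83% higher. Most values of the table lie below 4, where a fall has little room to show, so this share is no like comparison for genes of higher signal. As the lists were chosen with earlier results of these data known, the counts describe the lists and test nothing.

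**Figure D4:**
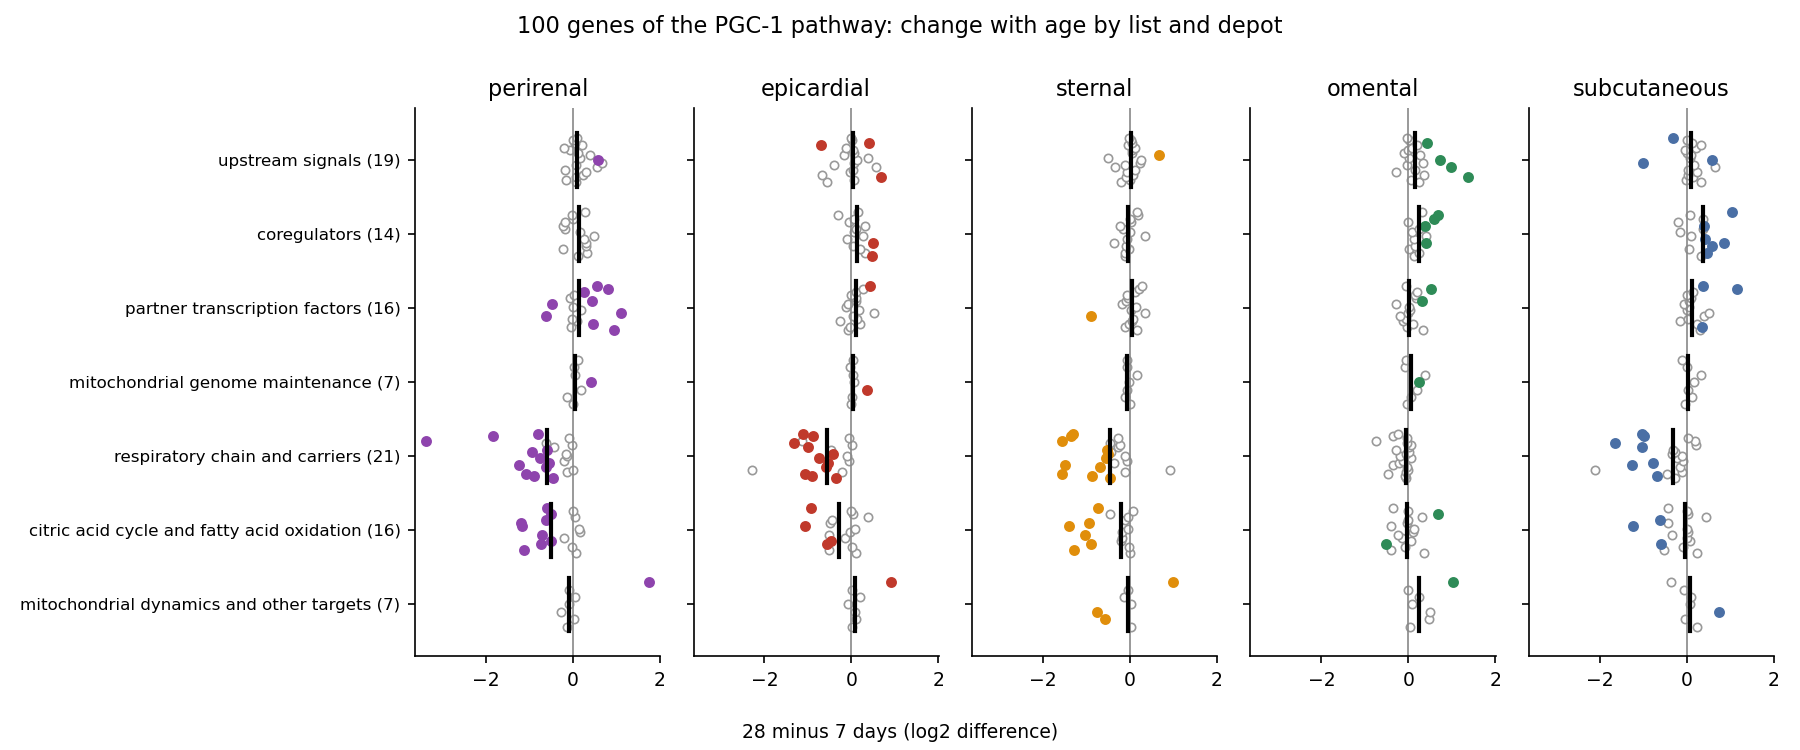
Difference between 28 and 7 days on the log2 scale (x axis) for 100 genes of 7 lists (rows, number of measured genes in brackets) in the 5 depots (panels), with filled points at an adjusted p of at most 0.05 and a black bar at the median of each list. In perirenal fat 21 of 37 genes of both mitochondrial lists are lower at 28 days and in omental fat 1 is.

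By depot the mitochondrial falls were most frequent in perirenal fat and rarest in omental fat. Of 37 genes in both mitochondrial lists, 21 fell in perirenal fat (median -0.56), 17 in sternal fat (-0.46), 15 in epicardial fat (-0.48), 10 in subcutaneous fat (-0.27) and 1 in omental fat (-0.05), where 1 rose. Medians over all probe sets lay between -0.00 and 0.06. UQCRC1, a core subunit of complex III, fell by 1.83 in perirenal fat (SE 0.24, adjusted p = 1.00e-06), 1.36 in sternal, 0.99 in subcutaneous and 0.88 in epicardial fat (adjusted p = 0.000128 to 0.0215), with -0.35 in omental fat (adjusted p = 0.384). COX5A fell by 1.23 in perirenal fat (SE 0.24, adjusted p = 0.000265), and it fell in sternal (adjusted p = 1.64e-05) and subcutaneous fat (adjusted p = 0.000859) too.

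In the citric acid cycle and β-oxidation the depots that passed differed from gene to gene. IDH3B fell in perirenal, epicardial, sternal and subcutaneous fat by 1.16, 1.07, 1.40 and 1.24 (adjusted p = 8.81e-05 to 0.00390), and IDH3G, another subunit of isocitrate dehydrogenase, by 1.18 in perirenal fat (SE 0.16, adjusted p = 1.44e-06) and 0.93 in sternal fat. ACADVL, which opens the oxidation of very long fatty acids, fell by 1.13 in perirenal fat (SE 0.18, adjusted p = 1.94e-05) and 1.27 in sternal fat. Neither IDH3G nor ACADVL passed in epicardial, subcutaneous or omental fat (adjusted p = 0.0691 to 0.963). ETFA, an electron carrier of β-oxidation that was picked after its values were seen, was the 1 gene of the 100 called lower in 5 of 5 depots.

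Most regulators of the coactivators rose or did not pass. Among 16 partner transcription factors 7 rose in perirenal fat, where 6.23% of all probe sets did: the glucocorticoid receptor NR3C1 (1.09, SE 0.17, adjusted p = 8.71e-06), the oestrogen receptor ESR1 (0.94, SE 0.16, adjusted p = 7.03e-05), the thyroid hormone receptor THRB (0.82, SE 0.13, adjusted p = 2.30e-05), and PPARG, THRA, YY1 and FOXO3. PPARD and NR1H3 fell there, as 3.09% of all probe sets did. Of 14 coregulators 0 passed in perirenal fat, where 9.32% of all probe sets passed in either direction. Of the coregulators 6 rose in subcutaneous fat (7.68% of all probe sets did) and 4 in omental fat (13.5%). Of 19 upstream signals only MEF2D, a muscle and neuronal transcription factor known to act on the PPARGC1A promoter in mice, rose in perirenal fat (0.59, SE 0.17, adjusted p = 0.0176), and it rose in omental (0.72) and subcutaneous fat (0.58) too.

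Factors that carry the PGC-1 signal to mitochondrial DNA, and other regulators, gave low signals at both ages. Group means ran from 2.50 to 2.79 for NRF1, from 2.49 to 2.76 for GABPA, from 2.49 to 2.81 for SIRT1, from 2.57 to 3.22 for NRIP1 and from 2.86 to 3.43 for TFAM. The lowest value of the table is 2.49, so a fall of NRF1, GABPA, SIRT1 or NRIP1 had little room to show. TFAM, which packages and transcribes mitochondrial DNA, changed by 0.04 in perirenal and 0.17 in sternal fat (adjusted p = 0.995 and 0.705), and NRF1 by 0.18 and 0.03 (adjusted p = 0.123 and 0.976). GABPA, the DNA-binding part of NRF2, changed by 0.09 and 0.05 in those depots (adjusted p = 0.794 and 0.975). The corepressor NRIP1 changed by 0.16 and 0.01 (adjusted p of at least 0.519). The deacetylase SIRT1, which activates PGC-1α, passed only in subcutaneous fat, where it fell by 0.32 (SE 0.09, adjusted p = 0.0186). Of 7 genes of mitochondrial genome maintenance 1 passed in perirenal fat, the polymerase subunit POLG2 (0.41, SE 0.08, adjusted p = 0.000390). Over all probe sets 9.32% passed there in either direction. VEGFA, an angiogenic target of PGC-1α in mouse muscle, rose in perirenal (1.75, SE 0.20, adjusted p = 3.71e-08), omental (1.03), sternal (0.99) and epicardial fat (0.92) and not in subcutaneous fat (-0.37, adjusted p = 0.326).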

How the data were processed

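The authors hybridised labelled RNA to Affymetrix Human U133 Plus 2 arrays. GCRMA, run by them with affy, turned the scans into the deposited log2 values, 1 per probe set, after a background correction from probe composition and a normalization between arrays, in versions not given in the sources used here. In the table are 10273 probe sets, of which 9780 carry 1 gene symbol in the platform annotation, 6 several and 487 none. No sequence was printed, as no genome or sequence table was used.

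Linear models were fitted with limma 3.58.1 in R 4.3.3, 1 per age over 5 depots and 1 over all 10 groups for changes with age, with empirical Bayes moderation and Benjamini-Hochberg adjustment over all probe sets of a comparison, calling at an adjusted p of at most 0.05. On simulated data for perirenal fat between the ages (10 draws, 10273 probe sets, 200 changed), 97% of changes of 1 log2 unit and 99.6% of changes of 2 units were found and 4.24% of calls were false. The draws put independent normal noise around the mean of each probe set over all arrays, with no low floor and no other group differences. Changed probe sets came from the whole table, where 82.7% of values lay below 4. These rates therefore need not hold for the 4 genes. No pair of arrays correlated above 0.990, so none was taken as a repeat.

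The 4 genes and the gene lists were chosen with earlier results of these data known. Named are the 4 genes, the 5 probe sets most like each, the 3 largest called changes in perirenal fat per pathway list, UCP1, TFAM, NRF1, GABPA, SIRT1 and NRIP1, and marker genes. Alternatives were quantile normalization, a mean filter of 4, array weights, an intensity trend, 1 model of all groups, fits of the 2 groups compared, exact permutation, a replicate block, and leaving out single arrays or those with CKM above 4. The mean filter kept the 4 genes in any case. The number of arrays per group limits precision.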

Additional observations from a re-analysis of the deposited data

Results flagged for a closer look

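In 4 of 40 groups of a gene, depot and age, 1 array stood apart from the rest of its group by Dixon's ratio. For normally spread values chance gives about 1 in 20. ESRRG in subcutaneous fat at 7 days was 6.62 on replicate A, against 2.62 to 3.29 on the other 3 arrays, and CKM on that array was 12.9. ESRRG in sternal fat at 7 days was 2.65 on replicate F, against 3.21 to 3.29. PPARGC1B in omental fat at 28 days was 4.11 on replicate N, against 4.61 to 4.71. ESRRA in sternal fat at 28 days was 4.04 on replicate M, against 4.35 to 4.40. CKM was 2.88, 2.82 and 2.90 on sternal M, omental N and sternal F. The flagged values on sternal F, omental N and sternal M lie below the recurring value of their probe set, where no order was read. The other arrays of these groups lie close together, so the rate of 1 in 20 need not hold for them.

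In 7 of 40 comparisons the change with age differed between depots by a test of the difference itself. For PPARGC1A the change in sternal fat minus that in omental fat was -2.94 and minus that in subcutaneous fat -2.70, the change in perirenal fat minus that in omental fat -2.32 and minus that in subcutaneous fat -2.08, and the change in epicardial fat minus that in sternal fat 1.82. For ESRRA the change in perirenal fat minus that in omental fat was -0.99 and minus that in subcutaneous fat -0.93.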

How the results depend on the processing

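Of 57 called results for the 4 genes, 44 kept their call with any single array left out, 13 lost it at least once and 0 changed sign. Lost under the other settings were 0 with a mean filter of 4, 1 with array weights, 1 of 10 with exact permutation, 1 of 40 in 1 model of all groups, 3 with an intensity trend, 6 with quantile normalization, 11 without the arrays with CKM above 4 and 15 of 32 in fits of only the 2 groups compared, which have fewer samples. With single arrays left out, the F test called 1 to 2 genes at 28 days and 4 at 7 days, depots against the others 2 to 4 and 8 to 10 combinations, pairs 4 to 8 and 14 to 17, changes with age 7 to 10, differences in them 6 to 8, and pathway lists 107 to 120.

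Fits of only the 2 groups called 4 of 20 changes with age (PPARGC1A in perirenal and sternal fat, PPARGC1B and ESRRA in perirenal fat), 2 of 40 pairs at 28 days and 62 of 500 pathway combinations. A mean filter of 4 called 5 of 20 depots against the others at 28 days, by adjusting over 1752 probe sets. Same-numbered arrays deviated together weakly (median r 0.0572 at 28 days and 0.0463 at 7 days, up to 0.317 and 0.164), with 12 of 39 and 6 of 33 pairs over 0.1, while pairs of other numbers had medians of -0.0090 and -0.0108. As the labels do not define the numbers and most pairs were at or below 0.1, they were not taken to pair the samples, although several depots came from each lamb. A low correlation over all probe sets, most of them at low signal, does not show that arrays of 1 number are unpaired. Arrays of 1 lamb may thus have been counted as independent in the p-values within an age. With the replicate block 1 gene was called by the F test, 1 combination against the others and 3 pairs at 28 days, and 9 of 57 calls were lost. Of these, 5 were of ESRRG at 28 days: the F test (3.89, adjusted p = 0.103), epicardial fat against the others (1.86, 0.0584) and its pairs with perirenal (-2.12, 0.139), sternal (1.76, 0.0636) and subcutaneous fat (1.83, 0.180). The others were PPARGC1A in perirenal minus epicardial fat (-1.11, 0.282) and in omental fat against the others at 28 days (-0.99, 0.0522), and at 7 days PPARGC1A in sternal fat against the others (1.27, 0.0603) and ESRRA in perirenal minus sternal fat (0.72, 0.0598).

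Signs turned only for differences that were not called. Without the arrays with CKM above 4, 28 minus 7 days was -0.086 for ESRRG in sternal fat, 0.81 for ESRRG in subcutaneous fat and 0.055 for PPARGC1A in subcutaneous fat. With single arrays left out it ranged from -0.78 to 0.55 for ESRRG in subcutaneous fat, from -0.28 to 0.047 for PPARGC1A in omental fat and from -0.072 to 0.084 for PPARGC1B in omental fat, and PPARGC1A in perirenal minus sternal fat at 7 days from -0.069 to 0.40. The cause was not tested. Signals near the recurring values limit what a fall can show.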
